A study of Mus musculus with 9 samples.

Results

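The 5′ untranslated region of Nfe2l1 (gene ID 18023) was read by dimethyl sulfate (DMS) probing in mouse embryonic stem cells. All rows of the deposited table that carry the Nfe2l1 transcript name were taken, which gave 807 nucleotides in 4 amplicons, of 32967 nucleotides in 161 amplicons of 69 transcripts. Of these, 364 A and C nucleotides were tested, of 16178 in the whole table. The amplicons are numbered here from the 5′ end: amplicon 1 reads positions 25 to 223 of the transcript, amplicon 2 positions 173 to 374, amplicon 3 positions 344 to 544 and amplicon 4 positions 430 to 634, without a gap. Neighbouring amplicons overlap, so the 364 nucleotides stand at 281 positions, 83 of which were read in 2 amplicons.

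DMS methylates the base-pairing face of A and C where it is free, and reverse transcription turns each modified base into a mismatch. A high value therefore marks an A or C that is open to the reagent, and a low value one that is paired or shielded. Nfe2l1 encodes a cap'n'collar transcription factor, also called NRF1 or TCF11, that is held in the membrane of the endoplasmic reticulum. It is normally extracted by the ATPase VCP and degraded, and when the proteasome is impaired it is deglycosylated by NGLY1, cleaved by the protease DDI2 and activates the genes of proteasome subunits. The 5′ untranslated region is the stretch that ribosomal subunits scan on their way to the coding start, and AUG triplets and hairpins in such a stretch are known to be able to lower initiation downstream.

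Total RNA of E14 cells (line E14TG2a, a single line) was used in 3 groups of 3 samples. Untreated cells received 1.6% DMS for 6 min at 37 °C, and ATP-depleted cells received the same after 10 min without glucose, in 10 mM 2-deoxyglucose plus 10 mM azide, agents that stop glycolysis and respiration and that stayed present through harvest. The third group is labelled as total RNA of the same cells refolded in vitro, and the table's column names mark it as not depleted; how it was refolded and how DMS was applied to it are not stated in the labels. The labels call the samples of a condition independent. The background in RNA that met no DMS was not analysed here. The comparisons ask how far the reactivity of the leader in living cells differs from that of refolded RNA, and whether it moves when cells lose ATP.

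Values are given as CPM, that is, the share of an amplicon's counts in a sample that fell on a nucleotide, scaled to a total of 1000000. They are relative within an amplicon: where some nucleotides rise, others must fall, and an overall gain or loss of reactivity cannot be seen. Whole counts could be recovered from the values and show how unequal the 4 amplicons were. Amplicon 2 held 156757 to 214586 counts per sample and amplicon 3 held 31164 to 113338. Amplicon 4 held 5928 to 31874 in 8 samples and 2635 in untreated replicate 3, against 23842 and 28155 in the other untreated samples. Amplicon 1 was the shallowest, with 3311 to 16535 counts in 8 samples and 1026 in in vitro replicate 1. Over all amplicons a sample held 5743965 to 12616275 counts.

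Replicate profiles followed depth. Over the A and C of amplicon 2, log2 profiles of samples of the same group correlated at 0.977 to 0.988, and over amplicon 3 at 0.901 to 0.978. Over amplicon 1 the correlation was 0.666 to 0.691 in untreated cells and 0.356 to 0.642 after refolding. In amplicon 4, untreated replicates 1 and 2 correlated at 0.922, and replicate 3 at 0.689 and 0.691 with them, the widest such gap for an untreated replicate 3 among the 161 amplicons. Most differences of amplicon 4 from untreated cells are therefore given with this library and without it. The tests of A or C alone or with U and G included, the overlaps and the ranks were made with it only.

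The first 26 bases read match 1 of the 5 Nfe2l1 start regions of the RefSeq promoter table (GRCm38.p6), on the minus strand with the start site at chr11:96829502, which places position 25 at 96829478 and position 50 at 96829453. The table ends there, so exon borders further on were not located. The gene spans chr11:96817414-96829968 in that build. In the sequences, which are shown because they carry the AUG triplets of the stretch read, capitals mark the triplet and T stands for U:
AUG at 65: gcgagagtgggcATGgcagcttggtct
AUG at 284: agaggacaactaATGtgaatccgaaag
AUG at 308: aagtgactgtgtATGggctgtggtgaa
AUG at 413: agggaaaagtgaATGtggctttcgctc
AUG at 609: ggtccttcagcaATGctttctctgaag

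ATG was searched on the sense strand alone. It stood in each of the 4 Nfe2l1 amplicons, and in 127 of the 161 amplicons (78.9%), whose stretches read were 185 to 218 nucleotides long. The first 4 triplets share a reading frame. The frame opened at position 65 ran for 25 sense codons to a TGA at 140, that at 284 met a TGA directly after the AUG, at 287, that at 308 ran for 7 codons to a TGA at 329, and that at 413 ran for 58 codons to a TAA at 587. The AUG at 609 lies in another frame, with no stop in the 8 codons read. Whether it is the annotated coding start was not looked up here, so positions from 609 on may lie outside the untranslated region. A G stood 3 bases before the AUG and another directly after it at position 65, the arrangement known to favour initiation.

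Stretches that carried the changes described further on are shown next, and capitals mark A and C whose reactivity differed between refolded RNA and untreated cells in at least 1 amplicon (limma, adjusted p under 0.05). The first and the last are the windows of 29 positions with the most such positions, 10 each, and the other surrounds the largest rise of the deepest amplicon; all were chosen after the values were seen:
stretch 268 to 296: cCAtagAggACaaCtaatgtgaatCCgAA
stretch 361 to 385: acgatcgAAcggCtcaactttgcga
stretch 503 to 531: gCaCtgAggAgggtAgCCtgctggCtgAA

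In untreated cells A carried 47.2% ± 1.4 (SD, n = 3) of the leader's counts and C 19.1% ± 1.05. The median A stood at 7208 CPM ± 839 in amplicon 1, 8052 ± 135 in 2, 10562 ± 431 in 3 and 9204 ± 236 in 4, and the median C between 4092 ± 1484 and 4727 ± 95 (SD, n = 3). A was thus above C in all 4 amplicons. After refolding, A carried 52.3% ± 0.37 and C 15.7% ± 0.69, and the ranges over the 3 samples did not overlap those of untreated cells for either base; no test was made of these shares. Over all 161 amplicons the corresponding shares went from 40.0% to 43.9% for A and from 33.2% to 29.9% for C.

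Among the most reactive nucleotides of untreated cells were A252 (14689, 12596 and 12939 CPM) and C362 (12497, 11103 and 11974 CPM) of amplicon 2, and C362 again (16564, 16001 and 16384 CPM) with A368 and A401 in amplicon 3. A224 came next in the former, at a mean of 11687 ± 351 CPM. C362 was thus high in both amplicons that read it, although its predicted probability of being unpaired was 0.198 in one and 0.548 in the other. In amplicon 4 A466 (21542, 16570 and 16025 CPM), A461 and A586 led. A586 rested on untreated replicate 3, with 26064 CPM there against 10657 and 9914 in the other samples. In the shallow amplicon 1 A222, C110 and C90 were highest, at means of 26419 ± 7625, 22601 ± 5471 and 19975 ± 8125 CPM (SD, n = 3).

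At the other end, C469 and C520 were among the 3 lowest A and C of untreated cells in both amplicons that read them, with means of 966 ± 98 and 1789 ± 358 CPM in amplicon 3 and 1158 ± 534 and 936 ± 38 in 4 (SD, n = 3). C468 followed in the former (1888 ± 274 CPM) and C601 in the latter (1655 ± 1749). C232 was lowest of the C of amplicon 2 (939 ± 136 CPM) and C30 of those of 1 (267 ± 155).

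The longest run of A in the leader, 10 nucleotides from 205 to 214, is shown with the bases after it, where capitals mark A that differed after refolding:
stretch 204 to 228: gaaaaaaaaAaggaggaaagaaagA

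The run had a valley of values in both amplicons that read it. In amplicon 2 the untreated mean fell from 11225 CPM at A205 to 395 at A209 and 257 at A210 and stood at 7797 at A214. In amplicon 1 it was 15128 CPM at A205, 128 at A209, 377 at A210 and 8922 at A214. Every A of the run had a predicted unpaired probability of at least 0.986, yet A209 and A210 were the lowest A in both amplicons. The valley stood in all 3 groups: the lowest mean of the run in amplicon 2 was at A210 in each, with 257, 430 and 450 CPM in untreated, ATP-depleted and refolded samples. A213 rose by 0.41 after refolding in amplicon 2 (limma adjusted p = 0.0375) and differed by -0.15 in amplicon 1, which did not pass (adjusted p = 0.874). Its call in amplicon 2 was kept in 1 of the 9 fits that left out a sample, and that of A228 in all 9. A run of at least 10 A was present in 5 of the 161 amplicons, and in 2 of the 4 of Nfe2l1, which share it.

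**Figure D1:**
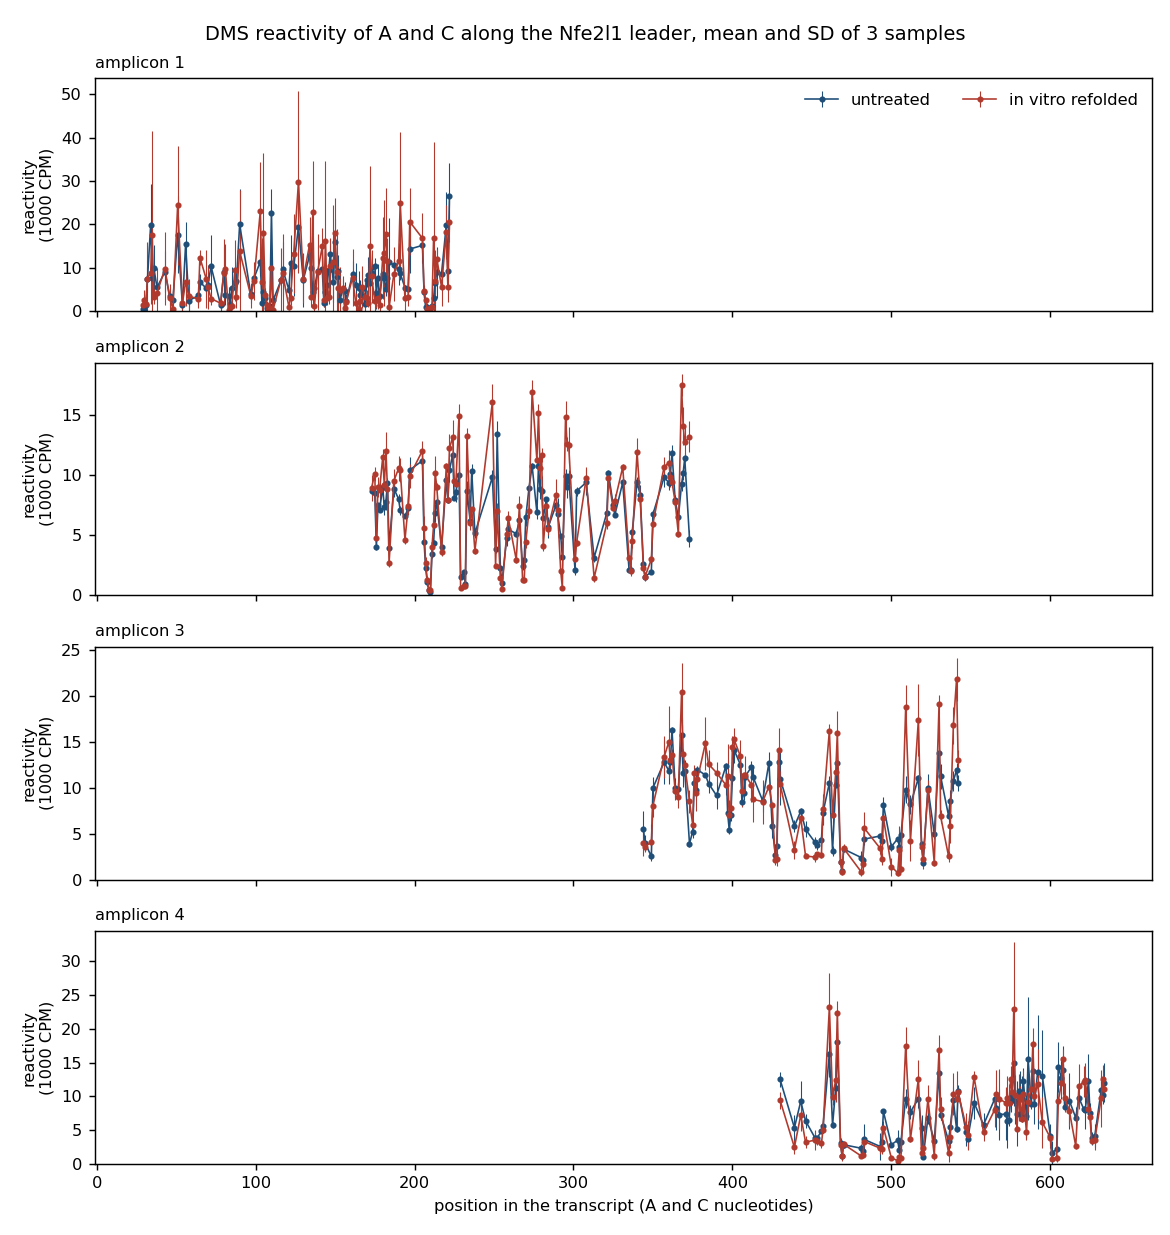
DMS reactivity (in units of 1000 CPM, mean and SD of 3 samples) of each tested A and C against its position in the transcript, in untreated cells (blue) and refolded RNA (red), 1 panel for each amplicon. The error bars are widest in amplicon 1, and the valley near position 210 stands in both upper panels.

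Loss of ATP left no A or C of the leader past the threshold. Of 364 nucleotides 0 were called between ATP-depleted and untreated cells (limma, all 9 samples in 1 fit, Benjamini-Hochberg over 16178 nucleotides), against 0 (0%) in the whole table. At an unadjusted p under 0.05 there were 15 (4.12%), against 3.93% in the whole table, and 11 of the 15 lay in the shallow amplicon 1. In the deepest amplicon, 2, 90% of the differences lay between -0.15 and 0.09 on the log2(CPM + pseudocount) scale, with a pseudocount of 3197 CPM and a median standard error of 0.09. The smallest unadjusted p for a higher value was that of C143 in amplicon 1, with 825, 2763 and 1893 CPM in untreated and 13472, 5773 and 6533 CPM in ATP-depleted cells (difference 1.19, adjusted p = 1.00). For a lower value it was C110 of the same amplicon, with 28586, 17858 and 21359 CPM in untreated and 14476, 8537 and 7029 in ATP-depleted cells (difference -0.99, adjusted p = 1.00). C456 of amplicon 4 had 4632, 4914 and 4827 CPM in untreated and 3155, 3267 and 3159 CPM in ATP-depleted cells, a difference of -0.32 that also did not pass (adjusted p = 1.00) and was -0.32 without the library of untreated replicate 3. In the deeper amplicon 3 C456 differed by -0.06. The groups did not overlap at C143, C110 or C456 of these amplicons. These bases were picked for their small p, so the non-overlap is not separate support, and its share over all nucleotides was not counted. The naming rule also took A207 and A211 with differences of 0.85 and 0.57 and C48 with -0.58, all of amplicon 1, where the median standard error was 0.35. Amplicon 2 reads A207 and A211 as well, and the differences there were -0.0012 and -0.08.

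Refolded RNA differed from untreated cells at 66 of the 364 nucleotides (18.1%), 27 higher and 39 lower, against 16.3% in the whole table (8.08% higher and 8.18% lower), so the share was near that of all leaders. Counted by position, 57 of 281 differed, 24 higher and 33 lower, and no position was called in opposite directions. The calls were 8 of 105 in amplicon 1 (7.62%), 28 of 97 in 2 (28.9%), 18 of 78 in 3 (23.1%) and 12 of 84 in 4 (14.3%), the order of their median counts. Values of all 66 did not overlap between the groups, and neither did those of the 60 calls against ATP-depleted cells. Non-overlap came with every call, so it is not separate support. Its share over all leaders was not counted. The 2 bases moved differently: of 210 A, 20 were higher and 9 lower, and of 154 C, 7 were higher and 30 lower. Over all amplicons 9.96% of A were higher and 4.05% lower, and 6.7% of C were higher and 11.2% lower; the median difference was -0.18 over the C of Nfe2l1 and -0.07 over all C, and 0.10 over A in both. Leaving out 1 untreated sample reduced the 66 calls to 34 (without replicate 1), 31 (without replicate 2) or 36 (without replicate 3). Without the library of untreated replicate 3 in amplicon 4 alone there were 62, of which 60 were among the 66.

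Against ATP-depleted cells, refolded RNA differed at 60 nucleotides (16.5%), 30 higher and 30 lower, against 14.9% of all tested A and C (8.31% higher and 6.56% lower). This comparison shares its refolded samples with the former one. Of A, 23 were higher and 9 lower, and of C 7 were higher and 21 lower, against 10.1% and 3.26% of all A and 7.02% and 8.97% of all C. Without 1 ATP-depleted sample the 60 calls became 24 (replicate 1), 15 (replicate 2) or 22 (replicate 3), and without untreated replicate 2, which enters only through the shared spread, 39.

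**Figure D2:**
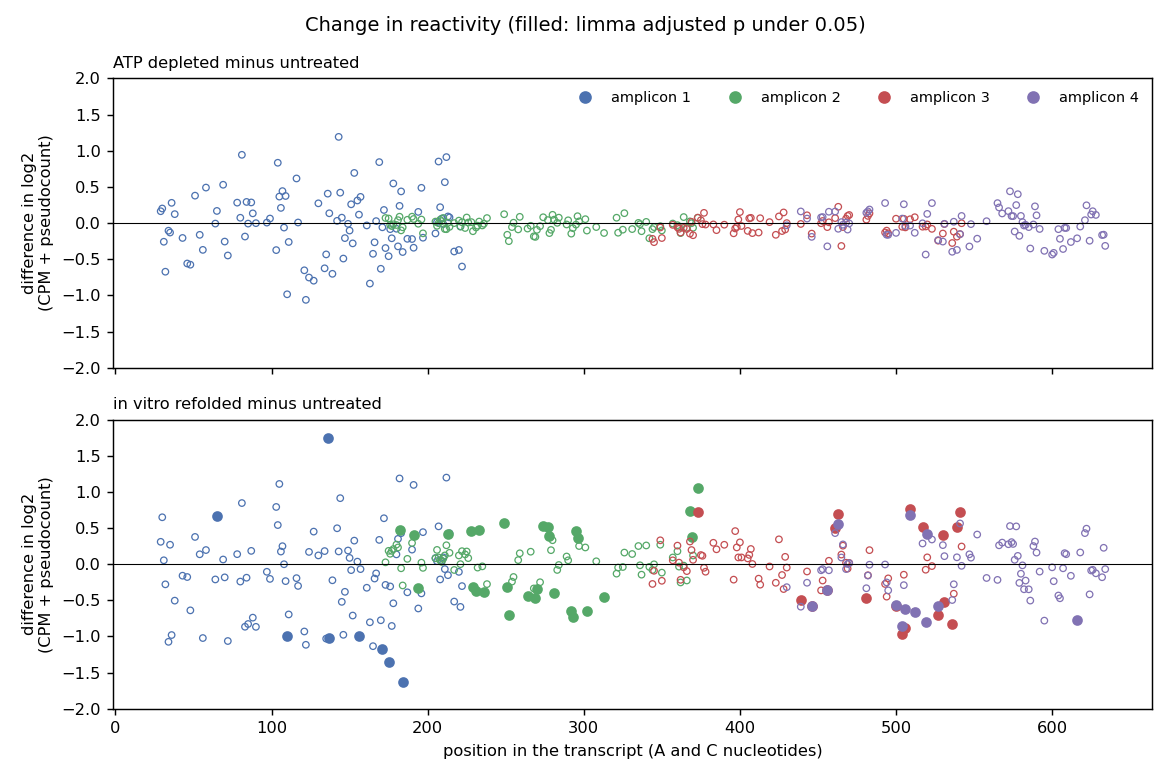
Difference in log2(CPM + pseudocount) of each tested A and C against its position in the transcript, for ATP-depleted minus untreated cells (top) and refolded RNA minus untreated cells (bottom), coloured by amplicon. Filled points passed an adjusted p of 0.05 in limma, 0 at the top and 66 at the bottom, and the open points of amplicon 1 scatter widely in both panels.

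The rise at C373 was the largest in the 2 deep amplicons. This base lies next to 374, the last position read in amplicon 2, and further inside amplicon 3. In amplicon 2 it had 3873, 5175 and 5114 CPM in untreated cells, 4890, 4894 and 5551 in ATP-depleted cells and 12248, 12709 and 14686 after refolding. All 3 refolded samples stood above all 6 in-cell samples. The difference from untreated was 1.05 (SE 0.11, limma adjusted p = 0.0011), and it was called with each sample left out in turn. Amplicon 3 reads the same base, with 3716, 4289 and 3716 CPM in untreated cells and 7135, 9424 and 8938 after refolding, a difference of 0.72 (SE 0.11, adjusted p = 0.0052). C373 lies in the middle of stretch 361 to 385, where its predicted probability of being unpaired was 0.016 and 0.003 in the amplicons folded alone and 0.005 with the 4 amplicons folded as 1 stretch, so the base became more reactive where the prediction pairs it.

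A368, 5 bases before it, rose as well in amplicon 2. It had 8648, 9643 and 9442 CPM in untreated cells, 10327, 9917 and 8177 in ATP-depleted cells and 16970, 18619 and 17030 after refolding (difference from untreated 0.74, SE 0.10, adjusted p = 0.0034). In amplicon 3 the values were 14465, 16138 and 16601 CPM in untreated cells and 18086, 19202 and 23962 after refolding, and the difference of 0.31 did not pass (adjusted p = 0.101). The refolded samples were again above the untreated ones. A369 was called in amplicon 2 with a smaller difference of 0.37 (adjusted p = 0.0445), which was lost with any sample left out.

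The stretch 503 to 531 changed at 10 of its 12 A and C in at least 1 of the 2 amplicons that read it, with the largest fall at C504. It was chosen for its number of calls, and each base had 2 readings in which to be called. No such share was counted over other leaders. In amplicon 3 C504 had 4551, 4392 and 4417 CPM in untreated cells, 4292, 4563 and 3730 in ATP-depleted cells and 394, 1157 and 617 after refolding (difference from untreated -0.97, SE 0.10, adjusted p = 0.0012; from ATP-depleted -0.92, SE 0.10, adjusted p = 0.0015). In amplicon 4 it had 2555, 2742 and 5213 CPM in untreated cells and 363, 258 and 750 after refolding, a difference of -0.86 (adjusted p = 0.012), or -0.68 (adjusted p = 0.0159) without the library of untreated replicate 3, which held the highest value. The refolded values lay below all in-cell values in both amplicons.

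C506, 2 bases further on, moved alike. It had 4992, 4768 and 4757 CPM in untreated cells and 1181, 787 and 1494 after refolding in amplicon 3 (difference -0.89, SE 0.10, adjusted p = 0.0015), and a difference of -0.62 in amplicon 4 (adjusted p = 0.0415; -0.74 and 0.0304 without that library). The call in amplicon 4 was kept in 2 of the 9 fits that left out a sample. C527, and C500 just upstream, also fell in both amplicons, C500 by 0.58 and 0.57 and C527 by 0.71 and 0.58 on the log2 scale, of which the fall of C500 in amplicon 3 and that of C527 in 4 were kept in 1 and 4 of those 9 fits. Without that library the differences in amplicon 4 were -0.61 for C500 (adjusted p = 0.0126) and -0.68 for C527 (adjusted p = 0.0279).

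A509, between them, went the other way. In amplicon 3 it had 10964, 8124 and 10272 CPM in untreated cells, 10158, 9522 and 10989 in ATP-depleted cells and 21439, 16642 and 18167 after refolding (difference from untreated 0.76, SE 0.13, adjusted p = 0.0067). In amplicon 4 it had 11239, 8570 and 9074 CPM in untreated cells and 17719, 20140 and 14588 after refolding (difference 0.69, SE 0.13, adjusted p = 0.012; 0.66 and 0.0305 without the library of untreated replicate 3). Both calls were kept with each sample left out. In the same stretch A512 had 8580, 6570 and 7916 CPM in untreated cells and 4040, 3245 and 3751 after refolding in amplicon 4 (difference -0.66, adjusted p = 0.0071; -0.64 and 0.0189 without that library). In amplicon 3 its difference was the same size, -0.66, with 1934, 6462 and 4287 CPM after refolding, and did not pass (adjusted p = 0.0669). The bases 504, 506 and 509 thus moved the same way in both amplicons.

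The other calls of the stretch stood in 1 amplicon each. A531 fell in amplicon 3, from 10407, 12850 and 10437 CPM in untreated cells to 6553, 6370 and 7675 after refolding (difference -0.52, adjusted p = 0.0163), and had a difference of 0.11 in amplicon 4 (adjusted p = 0.690; 0.05 and 0.885 without the library of untreated replicate 3), so its sign was not repeated. C519 fell in amplicon 4 (difference -0.80, adjusted p = 0.0340; 0.0752 without the library of untreated replicate 3) and differed by -0.08 in amplicon 3 (adjusted p = 0.639). A517 and A530 rose in amplicon 3 by 0.51 and 0.40 and C520 in amplicon 4 by 0.41, and these 3 calls were kept in 1, 3 and 1 of the 9 fits that left out a sample.

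**Figure D3:**
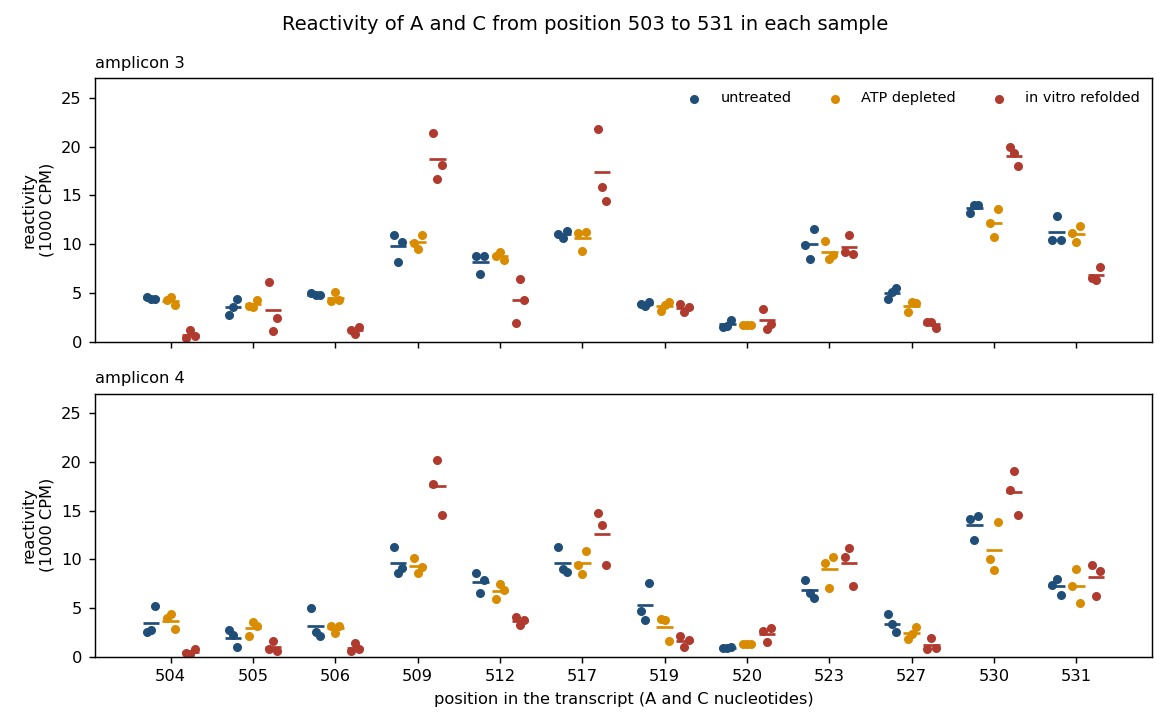
Reactivity (in units of 1000 CPM) of each A and C from position 503 to 531 in every sample, by group, with bars at the means of 3 samples; amplicon 3 is at the top and 4 at the bottom. Refolded samples (red) lie below the in-cell samples at 504 and 506 and above them at 509 in both panels.

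The stretch 268 to 296, also chosen for its number of calls, is read by amplicon 2 and holds the AUG at 284. It changed at 10 of its 18 A and C, 5 higher and 5 lower. In the whole of amplicon 2, the deepest, 28 of 97 were called (28.9%), and stretches of other leaders were not counted. C293 fell most, from 2470, 3706 and 3370 CPM in untreated cells to 691, 432 and 771 after refolding (difference -0.73, adjusted p = 0.0078), and C292 beside it fell from 4746, 5063 and 4980 to 2053, 2128 and 1804 (difference -0.65, adjusted p = 0.0045). Their predicted unpaired probabilities were 0.020 and 0.019. C281, C269 and A270 fell by 0.40, 0.47 and 0.35 on the log2 scale. A274 rose from 10575, 11042 and 10723 CPM to 17677, 17345 and 15927 (difference 0.53, adjusted p = 0.0057), and A277, A295, A296 and C278, each with a predicted unpaired probability between 0.957 and 0.999, rose by 0.52, 0.46, 0.37 and 0.40. The groups did not overlap at any of the 10, as at every call, and the A of the AUG itself did not pass (adjusted p = 0.954). The calls of A270 and A296 were kept in 1 of the 9 fits that left out a sample, and those of A274, A277, C292 and C293 in all 9.

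C541 of amplicon 3 rose from 11068, 12525 and 12189 CPM in untreated cells to 20926, 24446 and 19994 after refolding (difference 0.72, SE 0.11, adjusted p = 0.0049). It stood at 9229, 10683 and 11369 CPM in ATP-depleted cells. C541 lies near 544, the last position read in amplicon 3. In amplicon 4, where position 541 lies well inside the stretch read, it had 5630, 5087 and 4827 CPM in untreated cells and 9426, 13856 and 5585 after refolding, a difference of 0.56 that did not pass (adjusted p = 0.123; 0.53 and 0.215 without the library of untreated replicate 3). Its predicted unpaired probability was 0.079 in the first amplicon, 0.544 in the second and 0.933 with the 4 folded as 1, so the prediction for this base depends on the stretch that is folded.

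In amplicon 1 the named changes were larger and less certain. A136 had 3676, 1954 and 7480 CPM in untreated cells, 4612, 8808 and 6202 in ATP-depleted cells and 35278, 11765 and 21385 after refolding (difference from untreated 1.74, SE 0.38, adjusted p = 0.018). Next to it, C137 had 4427, 6402 and 4776 CPM in untreated cells and 3126, 166 and 109 after refolding (difference -1.02, SE 0.25, adjusted p = 0.029), where the lowest recovered count was 0. C184, A175, A171 and C110 had differences of -1.64, -1.36, -1.17 and -0.99, with adjusted p between 0.031 and 0.047. Each of the 8 calls in this amplicon was lost in at least 1 of the 9 fits that left out a sample: A136 without untreated replicate 1 or 2 (adjusted p up to 0.063), C137 in 5 fits, C184 in 7, A175 and A171 in 6 and C110 in 8 (adjusted p up to 0.133).

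The deeper amplicon 2 also reads positions 173 to 223, and with them A175 and C184, neither of which passed there. A175 had 8585, 8874 and 8148 CPM in untreated cells and 10777, 9982 and 9645 after refolding there, a difference of 0.18 that did not pass (adjusted p = 0.183) and had the opposite sign. C184 differed by -0.29 there (adjusted p = 0.0595). A191, which stood at 1.44 above ATP-depleted cells in amplicon 1 (adjusted p = 0.030), differed from them by 0.35 in amplicon 2 (adjusted p = 0.041), and from untreated cells by 0.41 (adjusted p = 0.023). A178, with a difference of -1.09 from ATP-depleted cells in amplicon 1, had one of 0.23 in 2, which did not pass (adjusted p = 0.163). A103, which had 7626, 10380 and 6037 CPM in ATP-depleted cells and 36171, 17068 and 15957 after refolding, rose by 1.16 (adjusted p = 0.034), and C156 fell by 1.11 on the log2 scale (adjusted p = 0.013). C143 fell by 1.02 on that scale from ATP-depleted cells to refolded RNA (adjusted p = 0.048). Of these calls against ATP-depleted cells in amplicon 1, that of C143 was kept in 1 of the 9 fits that left out a sample, those of A103 and A178 in 3, that of A191 in 5 and that of C156 in 8. The call of A191 in amplicon 2 was kept in 1.

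Of the AUG triplets, that at 65 was the only one whose A passed the test. A65 had 7278, 4650 and 8021 CPM in untreated cells, 8083, 6044 and 9345 in ATP-depleted cells and 10271, 13091 and 13569 after refolding (difference from untreated 0.67, SE 0.18, limma adjusted p = 0.037; from ATP-depleted 0.50, adjusted p = 0.097). The refolded samples lay above all in-cell samples, but the call rested on counts between 11 and 111 and was kept in 3 of the 9 fits that left out a sample, with an adjusted p of up to 0.107. Its predicted unpaired probability was 1.00 in the amplicon folded alone and 0.053 with the 4 amplicons folded as 1. A284 went from 5649 ± 855 to 5558 ± 507 CPM (SD, n = 3), A308 from 9407 ± 1092 to 9748 ± 963, A413 from 11165 ± 1333 to 8747 ± 2504 and A609 from 8484 ± 236 to 9762 ± 2137. The differences at these 4 were -0.01, 0.04, -0.28 and 0.14, with adjusted p between 0.278 and 0.954, and that of A609 was 0.15 without the library of untreated replicate 3 (adjusted p = 0.572).

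Overlaps gave the same base in 2 separate amplifications of the same RNA samples. Between amplicons 3 and 4, positions 430 to 544 held 39 tested A and C. The differences between refolded RNA and untreated cells had the same sign at 32 of them and a correlation of 0.85 across nucleotides. Of these, 8 were called in both amplicons, all 8 in the same direction (C446, C456, C463, C500, C504, C506, A509 and C527), and 12 in 1 of them, 11 of which had the same sign in the other. Between 2 and 3 the correlation was 0.92 over 14 nucleotides, and between 1 and 2 it was 0.53 over 30, with the same sign at 15. The differences between ATP-depleted and untreated cells correlated at 0.42, 0.61 and -0.30 over the same 3 sets. All of these values include the library of untreated replicate 3 in amplicon 4. Points of a set share their samples and bases, and nucleotides are not independent replicates. Agreement in the overlaps of other transcripts was not counted, so these values cannot be called high or low for the table.

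C446 and C463 show the pattern. C446 had 5189, 4768 and 6437 CPM in untreated cells and 2481, 2360 and 2876 after refolding in amplicon 3 (difference -0.58, adjusted p = 0.0088), and -0.58 in amplicon 4 (adjusted p = 0.033). C463 had 3137, 2594 and 3623 CPM in untreated cells and 7991, 6277 and 6739 after refolding (difference 0.69, adjusted p = 0.0052), and 0.56 in amplicon 4 (adjusted p = 0.047). Without the library of untreated replicate 3, the calls of amplicon 4 at both did not pass (adjusted p = 0.083 and 0.078). In all, 6 of the 12 calls of that amplicon were lost without the library (C446, C456, C463, C519, C520 and C616) and 2 gained (C439 and A552), and the signs of these 8 did not change.

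**Figure D4:**
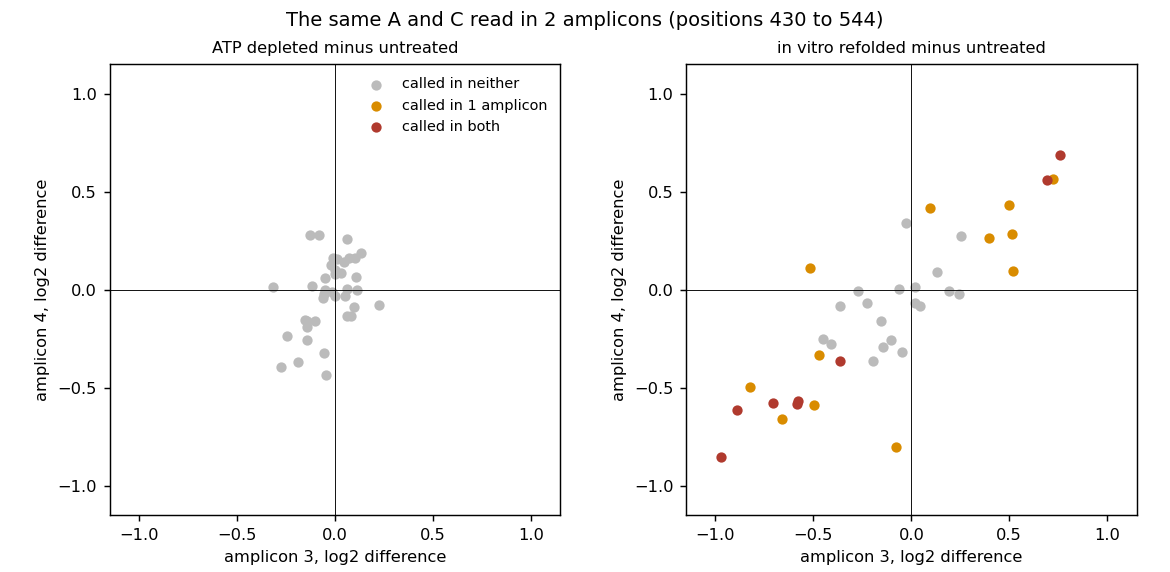
Log2 differences of the 39 A and C at positions 430 to 544 in amplicon 3 (horizontal) and in amplicon 4 (vertical), for ATP-depleted minus untreated cells (left) and refolded RNA minus untreated cells (right). The 8 nucleotides called in both amplicons (red) lie at the lower left and upper right of the right panel.

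Over consecutive windows of 25 positions, 8 of 32 differed between refolded RNA and untreated cells (25.0%), 2 higher and 6 lower, against 19.7% of 1332 windows in the whole table (9.16% higher and 10.5% lower). The larger falls were at 480 to 504 and 430 to 454 of amplicon 4 and at 494 to 518 of amplicon 3. At 480 to 504 the mean log2 value was 12.68, 12.71 and 12.53 in untreated cells and 12.28, 12.26 and 12.42 after refolding (difference -0.32, adjusted p = 0.0067, and -0.37, adjusted p = 0.0033, without the library of untreated replicate 3). At 430 to 454 it was 13.26, 13.20 and 13.19 against 12.93, 12.87 and 12.89 (difference -0.32, adjusted p = 0.0019, and -0.33, adjusted p = 0.0038, without that library). At 494 to 518 it was 13.19, 13.13 and 13.20 against 12.91, 12.89 and 12.85 (difference -0.29, adjusted p = 0.0015). The groups did not overlap in any of these windows.

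Smaller falls stood at 248 to 272 and 298 to 322 of amplicon 2 (-0.18 and -0.17) and at 469 to 493 of amplicon 3 (-0.12, adjusted p = 0.0485), and the rises were 0.12 at 198 to 222 of amplicon 2 and 0.18 at 369 to 393 of amplicon 3. Window 298 to 322 holds the AUG at 308 and window 198 to 222 the run of A. The calls at 469 to 493 and 198 to 222 were lost with any sample left out, that at 298 to 322 without untreated replicate 3 (adjusted p = 0.051) and that at 369 to 393 without untreated replicate 1 or 2 or in vitro replicate 2 or 3 (adjusted p up to 0.073). In all 5 windows were called without untreated replicate 1, 2 or 3 or without in vitro replicate 2 or 3. Against ATP-depleted cells 8 windows passed, 4 higher and 4 lower, against 22.1% (13.8% higher and 8.26% lower), and 5 without ATP-depleted replicate 1 or in vitro replicate 2. They included a rise of 0.25 at 530 to 554 of amplicon 4 (adjusted p = 0.0069), where the difference from untreated cells was 0.09, or 0.11 without the library of untreated replicate 3, and did not pass either way. Between ATP-depleted and untreated cells 0 of 32 windows passed in limma, against 0% of all, and 3 had an unadjusted p under 0.05, against 5.41%.

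The Gini coefficient, which is 0 where all A and C of an amplicon react alike and approaches 1 where few take all counts, was higher after refolding in 4 of 4 amplicons, against 80.1% of the 161 amplicons (82% changed in either direction). In amplicon 2 it was 0.274, 0.260 and 0.263 in untreated cells, 0.269, 0.266 and 0.272 in ATP-depleted cells and 0.336, 0.349 and 0.328 after refolding (difference from untreated 0.0724, SE 0.00861, adjusted p = 0.00017). In amplicon 3 it was 0.280, 0.272 and 0.270, then 0.271, 0.256 and 0.269, then 0.371, 0.363 and 0.362 (difference 0.0913, SE 0.00813, adjusted p = 4.6e-05). The refolded samples lay above all in-cell samples in both.

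In amplicon 4 the untreated values were 0.298, 0.293 and, in the library that stands apart, 0.366, the ATP-depleted ones 0.322, 0.308 and 0.318 and the refolded ones 0.402, 0.398 and 0.389. The difference of 0.0774 (adjusted p = 0.0060) became 0.101 (adjusted p = 9.4e-05) without that library, 0.0472 with A alone (adjusted p = 0.199) and 0.0352 with U and G included (adjusted p = 0.0758). Against ATP-depleted cells it was 0.0714 with A alone (adjusted p = 0.0652) and 0.0388 with U and G included (adjusted p = 0.0527). In amplicon 1 the values were 0.518, 0.381 and 0.402, then 0.418, 0.357 and 0.358, then 0.698, 0.540 and 0.489, and untreated replicate 1 lay among the refolded samples. The difference of 0.142 (adjusted p = 0.046) was lost in 7 of the 9 fits that left out a sample, with an adjusted p of up to 0.138, and lay between 0.081 and 0.185. Against ATP-depleted cells all 4 amplicons were higher (differences 0.0688 to 0.198, adjusted p of 0.013 or lower), against 78.9% of all (80.7% in either direction), with each sample left out in turn. Between ATP-depleted and untreated cells 0 of 4 passed in limma, against 0% of all, and 0 had an unadjusted p under 0.05, against 8.07%, and the differences were -0.056, 0.0036, -0.0086 and -0.0032, the last of which was 0.0205 without that library (adjusted p = 0.714); in the deep amplicons 2 and 3 their 95% intervals ran from -0.0163 to 0.0235 and from -0.0274 to 0.0102.

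Relative to the other leaders, 2 and 3 were among the more even, at ranks 138 and 132 of 161 from the highest untreated Gini coefficient. Amplicons 4 and 1 stood at ranks 98 and 14. Ranks were not adjusted for depth, and amplicon 1 was the shallowest of the 4. Its highest Gini coefficient, 0.698, was that of in vitro replicate 1, with 1026 counts. The rank of 4 includes the library of untreated replicate 3, with an untreated mean of 0.319, against 0.295 without that library. Refolding moved the Nfe2l1 amplicons by amounts on both sides of the median of 0.0923 over all amplicons. By the mean absolute difference of the Gini coefficient over the 9 samples, the amplicon of another transcript most like amplicon 2 was one of Ehbp1 (0.0075), that most like amplicon 3 one of Ube4b (0.0105), that most like amplicon 4 one of Srgap2 (0.0135) and that most like amplicon 1 one of Sertad2 (0.0439).

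The mean log2 reactivity of A and C together was called in 0 of 4 amplicons in limma in each comparison (0% of all amplicons for ATP depletion, 8.7% for refolded RNA against untreated cells and 13% against ATP-depleted cells), with 0 (against 6.21%), 0 and 1 at an unadjusted p under 0.05. Taken alone, C was lower after refolding than in untreated cells in 4 of 4 amplicons, by 0.30, 0.15, 0.16 and 0.18 on the log2 scale in order along the leader (adjusted p = 0.021, 0.0015, 0.0015 and 0.0059), against 31.1% of the 161 amplicons with lower C. The test of C alone was not repeated without the library of untreated replicate 3 in amplicon 4. A alone was higher in 1 of 4, against 24.8%. Against ATP-depleted cells C alone was lower in 2 of 4, against 19.9%, and A alone higher in 2 of 4, against 39.8%.

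Reactivity was set against a fold predicted by ViennaRNA for each amplicon at 37 °C, as the area under the ROC curve (the chance that an A or C predicted unpaired is more reactive than one predicted paired). The predicted minimum free energies along the leader were -60.4, -46.0, -70.2 and -61.0 kcal/mol, with 53.3%, 49.5%, 68.7% and 58.5% of bases paired and a GC content of 54.8%, 48.5%, 59.2% and 51.2%. In amplicon 2 the area was 0.658, 0.658 and 0.672 in untreated cells, 0.696, 0.684 and 0.681 in ATP-depleted cells and 0.740, 0.739 and 0.731 after refolding, so the 3 groups did not overlap. The refolded samples differed by 0.0740 from untreated cells (SE 0.0106, adjusted p = 0.0014) and by 0.0497 from ATP-depleted cells (adjusted p = 0.0091). The difference of 0.0243 between the in-cell groups did not pass (adjusted p = 0.638); for ATP depletion 0.621% of all amplicons passed and 6.83% had an unadjusted p under 0.05, as had 2 of the 4 here.

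In amplicon 1 the area was 0.476, 0.539 and 0.558 in untreated cells, 0.575, 0.619 and 0.601 in ATP-depleted cells and 0.598, 0.607 and 0.637 after refolding. The refolded samples differed from untreated cells by 0.0896 (adjusted p = 0.019) and from ATP-depleted cells by 0.0155 (adjusted p = 0.70), and the in-cell groups from each other by 0.0741 (adjusted p = 0.43), although they did not overlap. The call against untreated cells was lost without in vitro replicate 2 or 3 (adjusted p up to 0.056), with the 4 amplicons folded as 1 stretch (difference 0.0339, adjusted p = 0.408), with A alone (0.145, adjusted p = 0.105) and with C alone (0.0699, adjusted p = 0.221). Amplicon 3 had the largest areas of the 4, 0.781, 0.819 and 0.784 in untreated cells and 0.749, 0.788 and 0.792 after refolding, and 4 had 0.661, 0.709 and 0.731 and 0.717, 0.735 and 0.746. Their differences of -0.0185 and 0.0327 did not pass (adjusted p = 0.456 and 0.291; 0.0478 and 0.149 for 4 without untreated replicate 3). With C alone the areas of amplicons 3 and 4 rose against untreated cells, by 0.0815 and 0.0804 (limma adjusted p = 0.0396 and 0.0493). The difference of amplicon 3 depended on the setting, from -0.14 to 0.0815 over those run. Against ATP-depleted cells it was -0.144 with A alone (limma adjusted p = 0.0325). With A and C together, 2 of 4 amplicons rose against untreated cells and 1 of 4 against ATP-depleted cells. Of all amplicons 11.8% and 11.2% rose and 22.4% and 24.8% changed in either direction.

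**Figure D5:**
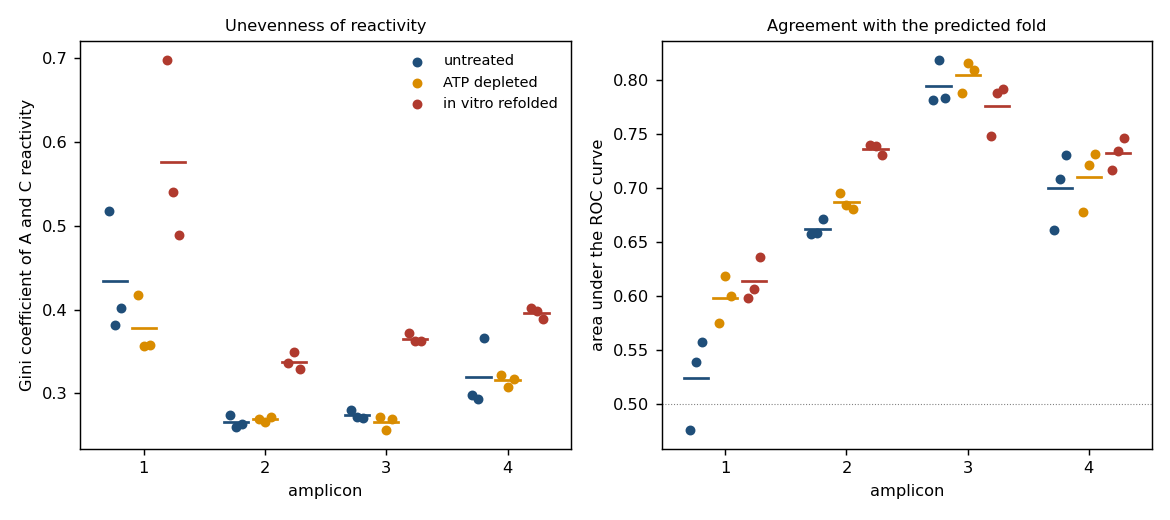
Gini coefficient of A and C reactivity (left) and area under the ROC curve against the predicted fold (right) in each sample, by amplicon and group, with bars at the means of 3 samples; the dotted line at 0.5 marks no separation. Refolded samples lie above all in-cell samples in the left panel except in amplicon 1, and the 3 groups separate on the right in amplicon 2.

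The calls were spread unevenly over the predicted states. Of 188 nucleotides with a predicted unpaired probability of 0.5 or lower, 13 were higher after refolding and 34 lower than in untreated cells, and of 176 above 0.5, 14 were higher and 5 lower; the median difference was -0.15 and 0.09. Over all amplicons 6.88% of the former were higher and 10.7% lower, and 9.43% of the latter higher and 5.32% lower, with medians of -0.05 and 0.08. In amplicon 2 alone, 10 of 54 unpaired A and C were higher and 1 lower, and 4 of 43 paired ones higher and 13 lower. These counts were not split by base, and A and C moved differently, so base and predicted state cannot be told apart in them.

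Of a list of 62 genes of the proteasome stress pathway (Nfe2l1 and its relatives and regulators, VCP cofactors, proteasome subunits and their assembly factors), the table holds transcripts of 2, Nfe2l1 and Ube4b, which encodes a ubiquitin chain elongation factor that works with VCP. Ube4b was read in 3 amplicons. Refolded RNA differed from untreated cells at 9 higher and 25 lower of 103 nucleotides in its first amplicon, at 8 and 11 of 93 in the next and at 11 and 12 of 108 in the last (33.0%, 20.4% and 21.3%, against 16.3% in the whole table), and the Gini coefficient was higher in each, by 0.120, 0.0962 and 0.0845 (adjusted p of 0.00016 or lower), as in 80.1% of all amplicons. Between ATP-depleted and untreated cells 0 nucleotides of Ube4b were called in limma, against 0% in the whole table.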

How the data were processed

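The deposited table holds 1 log2 value per nucleotide and sample, which the authors made from mutation counts per amplicon; the scale is not given in the sources used here. The submitters' processing notes name bcl2fastq, Bowtie2 and limma. Raised to a power of 2, the values of an amplicon behave as deposited CPM of that amplicon, its counts scaled to a total of 1000000, and whole counts were recovered for 1449 of 1449 libraries (amplicon and sample; tolerance 0.0001), with an offset of 0.5. No coverage is given, so mutation rates and their intervals were not computed.

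The 9 samples were grouped by their titles. A and C were tested with limma 3.58.1 (R 4.3.3) on log2(CPM + 3197), the pseudocount being 0.5 times the pooled median of 6394 CPM, with all 9 samples in 1 fit and Benjamini-Hochberg adjustment over 16178 nucleotides, at a threshold of 0.05. A difference on this scale understates the change of low values. G and U were not tested. Gini coefficients, mean log2 values and areas under the ROC curve were tested over 161 amplicons and windows with at least 5 tested nucleotides over 1332. Folds came from ViennaRNA 2.7.2 on each stretch read, at 37 °C, with unpaired meaning a probability above 0.5. Other steps used Python 3.11.15, pandas 2.3.3, numpy 2.4.6, scipy 1.17.1 and matplotlib 3.10.9.

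The naming rule took, per comparison, the 5 largest rises and 5 largest falls past the threshold with no overlap of replicates (where none passed, the 3 smallest unadjusted p in each direction), the 3 highest and 3 lowest untreated levels per amplicon, and the same position in a second amplicon. The members and lists were chosen with earlier results of these data known. A test on simulated data took the comparison of refolded RNA with untreated cells over 16178 nucleotides. Of these, 100 were raised 2.83-fold and 100 lowered as much, all drawn from nucleotides with a mean above the pooled median of 6394 CPM. The calls took in 100% of those raised, 89% of those lowered and 0.0376% of the unchanged ones. The added spread was the same for every nucleotide. The rates do not cover lower values, and the median C of untreated cells lay below 6394 CPM in every Nfe2l1 amplicon. Replicates are samples that the labels call independent. Alternatives were the pseudocount, filters, base, window length, fold, left-out samples and library, and a replicate block.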

Additional observations from a re-analysis of the deposited data

Results flagged for a closer look

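Counts also fell on bases outside the A and C that were tested. In untreated cells U carried 19.8% of the recovered counts of the leader and G 13.9%, although neither base enters a comparison above; over all amplicons the corresponding shares were 20.0% and 6.87%. After refolding they were 18.3% and 13.7%. How much of these counts would be seen in RNA that met no DMS was not tested. With 3 samples a group, no single sample was tested for distance from its group.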

How the results depend on the processing

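The count of 66 nucleotides that differed between refolded RNA and untreated cells became 28 over the nucleotides at or above the median level, 43 with a replicate block, 27 with the 6 samples compared alone and 31 to 52 with 1 sample left out. The 60 against ATP-depleted cells became 32, 39, 31 and 15 to 52. Against untreated cells, windows called were 4 at 15 positions, 3 at 40 positions and 5 to 6 with 1 sample left out, and against ATP-depleted cells 5 at 40 positions and 5 to 8. Gini coefficients of A alone passed in 2 amplicons against untreated cells. For mean log2 reactivity, A alone gave 1 and 2 amplicons in the 2 comparisons, C alone 4 and 2, the median filter 1 and 2, and the larger pseudocount 1 against ATP-depleted cells. For the area under the ROC curve against untreated cells, 1 amplicon passed with the amplicons folded as 1 stretch and 1 with A alone. With 1 sample left out 1 to 2 passed. Amplicon 1 was the one lost in these. With C alone amplicons 3 and 4 rose (0.0815 and 0.0804, limma adjusted p = 0.0396 and 0.0493). Against ATP-depleted cells 2 passed with A alone, of which amplicon 3 fell (-0.144, adjusted p = 0.0325). With C alone 3 passed, among them rises of amplicon 3 (0.0907, adjusted p = 0.0213) and amplicon 4 (0.130, adjusted p = 0.0068). With C alone the sign turned for the mean of amplicon 2 against untreated cells (-0.15), that of amplicon 3 against ATP-depleted cells (-0.11), and the areas of amplicon 3 in both (0.0815 and 0.0907). The cause was not tested. Between ATP-depleted and untreated cells 0 nucleotides, windows or amplicons of Nfe2l1 were called by limma under the alternatives run.

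At single nucleotides little pairing by replicate number was seen. Same-numbered samples deviated from their group means with correlations of -0.0177 to 0.1 over all tested nucleotides and -0.143 to 0.174 over those of Nfe2l1. Such correlations also carry counting noise, so they cannot exclude a pairing. The area under the ROC curve of amplicon 4 rose from replicate 1 to 3 in all 3 groups, and in the other amplicons the order differed between groups. With the replicate block 7 and 10 windows, 4 and 4 Gini coefficients and 2 and 1 areas passed in the 2 comparisons with refolded RNA. Depth limits amplicon 1 most, and 3 samples a group limit all tests.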
